A study of Chlamydomonas reinhardtii with 2 samples.

Results

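In poly-A selected RNA of the green alga Chlamydomonas reinhardtii, 540 of 14540 edges of trimmed reads in the sor1 library (3.71%) and 749 of 35964 in the wild-type library (2.08%) faced sequence with almost no reads. A trimmed read is a 36-base read of which 21 to 35 bases were aligned. An edge is a base at which at least 5 trimmed reads of at least 3 different starts or lengths stop together, on their right or on their left side. An edge was a member when at most 2 reads started in the 300 bases beyond it and at least 50 reads started in the 300 bases on its inner side. Member edges of 1 side at most 50 bases apart were joined, and the joined sites are called ends below. An end in this sense is a base at which trimmed reads stop together and beyond which few reads start. Full-length reads can run past an end on the right side, and what lies beyond an end is described further on. There were 431 ends in sor1, 309 of them on the right and 122 on the left side of their reads. There were 312 in the wild type, 253 on the right and 59 on the left. All of these counts come from the read values that the rule itself uses and are a description, with no test.

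The sor1 mutant was isolated in a screen for cells that tolerate singlet oxygen, and it carries the strain label 4A+, as does the wild type it was set against. Both cultures were grown with acetate in TAP medium at 25 °C in a daily rhythm of 12 h light, at an intensity of 100 µmol photons m-2 s-1, and were collected 6 h after the start of the light period. The sor1 sample was sequenced in 1 run of 9005690 uniquely aligned reads, of which 6.52% were trimmed (exact binomial 95% interval 6.51 to 6.54). The wild-type sample was sequenced in 2 runs of 3904806 and 3996001 reads, and 9.76% of their sum were trimmed (9.74 to 9.79). The labels speak of several biological replicates but give 1 sample per genotype, so the spread between cultures is unknown and no p-value is given. Intervals in this text are exact, at the 95% level, and stand for counting error alone, since amplification copies cannot be told from separate molecules.

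A read can fail to match the genome along its whole length for several reasons. In a spliced messenger RNA, a read across the junction of neighbouring exons matches the genome on either side of an intron but not as 1 piece. At the 3′ end of a nuclear messenger RNA, the transcript is cleaved and a tail of adenosines is added that the genome does not encode, and the cleavage can fall on any of several neighbouring bases. Trimming such reads base by base leaves the part that lies in 1 exon or in front of the tail, so that many trimmed reads stop at the same base. A read that ends in sequencing errors is trimmed as well, at a base that differs from read to read. The files carry no strand, no gene and no base letters, and the genome was not used here, so no end is assigned to a gene or shown as sequence.

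The positions of the sor1 and wild-type files lie in different coordinate frames, which reach to 112305237 in sor1 and 118213979 in the wild type. Each position below is the global position of its own library's file. Only in the ranking of ends by inner reads are all positions given in the sor1 frame. The assembly of each frame is not settled by the deposited notes. Stretches of the frames were paired by the fine pattern of full-length read starts alone. The pairing covered 16.2 Mb in 1485 intervals, 881 in the same orientation and 604 reversed, and held 74.6% of sor1 reads and 76.5% of wild-type reads. Trimmed reads took no part in the pairing. Trimmed reads of the library in which an end was not chosen are therefore independent of both the rule and the pairing. Where reads beside a carried-over end were counted in the other library, those at a left edge were counted by their last base.

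A few ends held a large part of the trimmed reads at ends. Summed over member edges there were 32267 trimmed reads in sor1 (3583 in CPM, the usual scaling of counts to library size) and 37398 in the wild type (4733 CPM). A read with a member edge on both sides counts at each, and different reads numbered 30891 in sor1 and 37397 in the wild type. The 10 ends with most reads held 51.4% of the sum over edges in sor1 and 52.1% in the wild type. The median end had 11 trimmed reads at its main edge in sor1 and 14 in the wild type, where the main edge is the edge of the end with most trimmed reads. At 191 ends in sor1 and 118 in the wild type the main edge had only 5 to 9 reads, and at 69 and 72 ends it had at least 50. The median number of reads starting on the inner side was 163 in sor1 and 703 in the wild type.

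The rule did not treat the sides alike, and the surplus of right over left ends follows from its wording. It counts read starts, so that reads reaching past a left edge count as lying beyond it, while reads reaching past a right edge do not. When left edges were counted in mirror image, by the last base of each read, there were 316 left ends in sor1 and 276 in the wild type, and the totals were 625 and 529. Of the 122 sor1 and 59 wild-type left ends of the rule as written, 92 and 50 were also member edges by the mirrored count. Near the inner threshold, 26 sor1 edges and 7 wild-type edges that met the outer limit had 50 to 54 reads inside, and 27 and 8 just missed it with 45 to 49. The sor1 left edge at 6891847 had 50 inner reads and was a member, and the right edge at 84916936, with 49, was not. Near the outer threshold, 161 sor1 and 148 wild-type edges with enough inner reads had exactly 2 reads beyond them, and 125 and 115 had 3. The wild-type right edge at 2199828 was a member with 2 reads beyond it, and the left edge at 597780 was not, with 3.

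At most sor1 ends the larger part of nearby trimmed reads stopped at 1 base, and they were more spread in the wild type. The main base was chosen as the edge with most trimmed reads, so part of its share is set by that choice. Of all trimmed reads that stopped within 25 bases of the main edge, a median of 92.3% stopped on the main base itself in sor1 and 63.8% in the wild type. In the mean over right ends the main base took 81.6% in sor1 and 58.9% in the wild type, and the bases next to it took 1.89% and 1.24% in sor1 and 3.33% and 1.87% in the wild type. At 143 ends in sor1 and 21 in the wild type no trimmed read stopped at any other base within 25 bases. Over the whole libraries, trimmed reads were also more frequent in the wild type, as given above, and its ends had more inner reads; the part of either in the difference of sharpness was not tested.

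**Figure D1:**
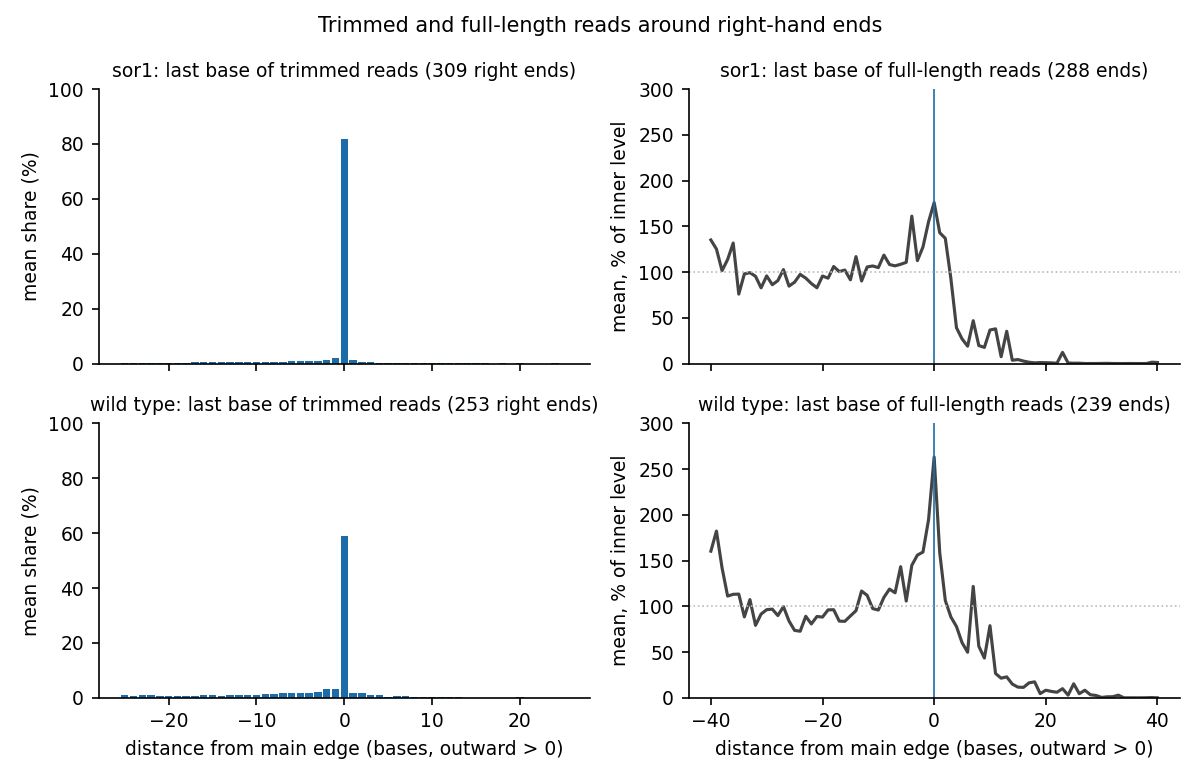
Left, mean share of trimmed reads (%) whose last base lies at each distance from the main edge, over right-hand ends, with sor1 above and wild type below. Right, last bases of full-length reads at each distance, as a percentage of the mean level over the inner bases, with 100% as the dotted line and the main edge as the blue line; a single peak of trimmed reads stands at the main base in both libraries (81.6% in sor1, 58.9% in wild type), and full-length reads thin out over the following bases, with single peaks such as that of 122% at 7 bases in wild type.

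Full-length reads came up to the edge and thinned out over the bases beyond it, sooner in sor1. At right ends the number of full-length reads that ended on the main base was 176% of the inner level in sor1 and 263% in the wild type. At 1, 2 and 3 bases beyond it the level was 143%, 137% and 92.8% in sor1 and 159%, 106% and 88.4% in the wild type. At 6 bases it was 18.9% in sor1 and 49.8% in the wild type, but at 7 bases it was 46.8% and 122%, and at 10 bases 36.6% and 78.8%. At 14 bases it was 3.61% in sor1 and 15.0% in the wild type. Full-length alignments were allowed up to 2 mismatches in the first alignment round, per the deposited readme, so a full-length read may overhang an edge. For right ends the rule counts these reads among the inner reads and not as reads beyond the edge.

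The trimmed reads at ends were short but not of a single length. In sor1 they had a mean length of 26.2 bases, against 27.0 at the edges that were not ends. In the wild type the means were 26.7 and 26.6. Averaged over sites in place of reads, ends had 27.0 ± 2.17 bases in sor1 (SD over 431 ends), against 27.9 ± 2.36 over its 14000 other edges, and 27.3 ± 2.67 in the wild type (312 ends), against 26.6 ± 2.28 over 35215 other edges. Ends were thus shorter than other edges in sor1 and longer in the wild type, with wide overlap between single sites. Reads trimmed by only 1 base were not found at any edge, and 34-base reads numbered 0 at sor1 ends and 293 at wild-type ends.

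Several ends were clusters of edges. In sor1 44 of 431 ends (10.2%) were made of more than 1 edge, and in the wild type 93 of 312 (29.8%), all of them on the right side. At a left cluster the trimmed reads of the outer edges would themselves count as reads beyond the inner ones, so the rule could not choose one. The most edges at 1 end were 12 in sor1 and 20 in the wild type, and the widest cluster spanned 22 bases in sor1 and 26 in the wild type. The sor1 end with 12 edges, at 84133010, had 210 trimmed reads on these edges, of which 38 stopped at the main base. It had 4381 inner reads, and reads returned only 3195 bases further on. The same end was chosen in the wild type, at 6400462, with 17 edges. There the main base had 186 trimmed reads, 89 in run 1 and 97 in run 2. The wild-type end with 20 edges, at 26058156, had 413 trimmed reads, of which 45 stopped at the main base. At the corresponding base of sor1 8 trimmed reads stopped, and the base with most sor1 trimmed reads nearby lay 4 bases further inward.

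Most ends did not face open-ended empty sequence. Reads were taken to return where 50 bases held at least 10 read starts, and each end was followed outward for 5000 bases. In sor1 228 of 431 ends (52.9%, 48.1 to 57.7) met an edge of the opposite side within 50 bases of the first returning read, as did 128 of 312 in the wild type (41.0%, 35.5 to 46.7). Such an end is 1 side of a gap with a sharp edge at either side. At a further 153 ends in sor1 (35.5%) and 97 in the wild type (31.1%) reads returned without such an edge. No reads returned within 5000 bases at 50 ends in sor1 (11.6%, 8.73 to 15.0) and 87 in the wild type (27.9%, 23.0 to 33.2). The ends with a far edge were the largest class in both libraries. The files do not tell the sides of an intron from facing ends of neighbouring transcripts or from other empty sequence. They hold uniquely aligned reads only, so sequence without reads need not be sequence without transcripts. Whether an end of any class is a transcript end was therefore not tested, and all are called by their rule.

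**Figure D2:**
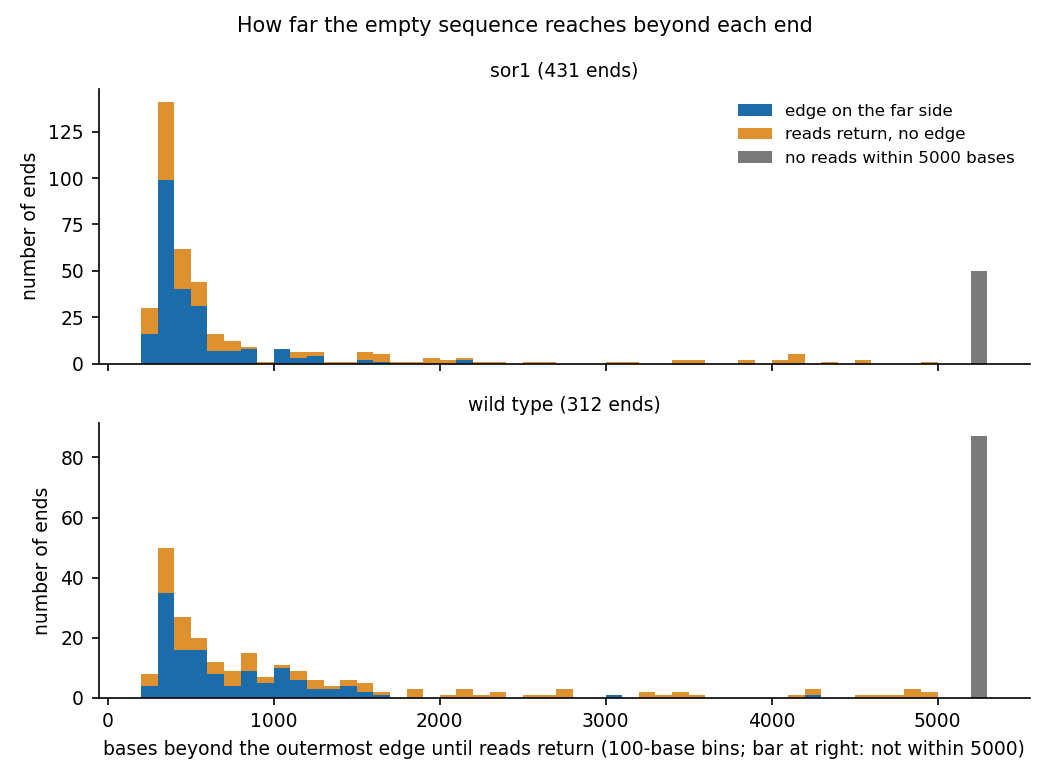
Number of ends by the distance in bases from the outermost edge to the first returning reads, in bins of 100 bases, with sor1 above and wild type below; colour gives what was met there, and the grey bar at the right counts ends with no reads within 5000 bases (50 in sor1, 87 in wild type). Ends with a far edge are most frequent in the bin that begins at 300 bases in both libraries.

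Behind the ends of the first class, reads returned within 1000 bases at 208 of 228 in sor1 and 97 of 128 in the wild type. Edge to edge they had a median of 402 bases in sor1 (275 to 2186) and 553.5 in the wild type (280 to 4270), where the lower limit is largely set by the 300 empty bases the rule asks for. In 32 sor1 gaps and 15 wild-type gaps both sides were chosen as ends, so the ends lay at 196 distinct gaps in sor1 and 113 in the wild type. Over these gaps the side with more trimmed reads at its edges had a median of 1.73 times as many as the other in sor1 and 1.71 times in the wild type. The sides were within 3-fold at 160 sor1 gaps and 85 wild-type gaps. Both edges had to have at least 5 trimmed reads, which brings the ratio nearer to 1 at the many ends with few reads.

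The end with most trimmed reads in sor1 was the right edge at 96724141, where 4134 trimmed reads stopped at the main base and 4254 over a cluster of 8 edges. It faced a gap of 1023 bases, and no full-length read ended between 3 and 35 bases beyond it. The far edge of the gap had 2737 trimmed reads, and all facing edges within 50 bases of the first returning read had 2811 in sum. At the corresponding wild-type base, 38293001, in the reversed orientation, 1109 trimmed reads stopped, 542 in run 1 and 567 in run 2. Scaled to library size the main base had 459 CPM in sor1, against 140 CPM at the wild-type base. The wild-type base was not an end by the rule, but the other side of its gap was, at 38291977. That end faced a gap of 1023 bases as well.

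The next sor1 end, at 107573309, had 2337 trimmed reads and faced a gap of 551 bases. In the wild type 2434 trimmed reads stopped at the corresponding base, 103167601, with 1233 in run 1 and 1201 in run 2. Scaled to library size it had 260 CPM in sor1, against 308 CPM at the wild-type base. Here too the wild type had its end on the other side, at 103167049, with 1585 trimmed reads, 19 edges and a gap of 551 bases. For these gaps the trimmed reads of both libraries stopped at the same pair of bases, and each library had its end on the right side of its own frame.

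The left ends with most trimmed reads in sor1 bounded very short stretches. At 87583711, 1787 trimmed reads of 3 lengths began on the left of a stretch of 23 bases, and 1589 stopped at its right end, 87583733. In such short stretches the same read can be in both counts. At 98172770, 516 trimmed reads began on the left of a stretch of 29 bases whose right end, 98172797, had 722. Neither stretch lay in a paired interval, so their wild-type levels are not given. The wild type had 1 such stretch of 72 bases, with 326 trimmed reads at its left end, 104566097, and 1792 at its right end, 104566168. Stretches bounded by an end on both sides numbered 17 in sor1 and 6 in the wild type, of which 9 and 3 were under 100 bases wide. The third left end of sor1, at 26540064, was of another kind, with 151 trimmed reads beside a gap of 569 bases. In the wild type 66 trimmed reads stopped at the corresponding base, 50720115, and there too the base was an end beside a gap of 569 bases.

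The end at 38324410 in sor1 lay only 42 bases from the left limit of its stretch of reads, counting the end itself. It had 2118 trimmed reads at the main base out of 3087 inner reads. The same base was an end in the wild type, at 62879584, with 3529 trimmed reads, 1790 in run 1 and 1739 in run 2, out of 5191 inner reads. Scaled to library size, the trimmed reads at the main base came to 235 CPM in sor1, against 447 CPM in the wild type. Full-length reads that ended 3 to 35 bases beyond this edge numbered 303 in sor1 and 1018 in the wild type. Those that ended 3 to 35 bases inside it numbered 152 and 123. The reads beyond thus made up 66.6% in sor1 and 89.2% in the wild type. In so short a stretch few full-length reads can end at the inner bases, which raises these shares.

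Right ends differed by what lay beyond them, which is a description, since several of these measures share counts with the rule. In sor1 the median share of trimmed reads on the main base was 94.4% at ends with a far edge, 87.5% where reads returned without one and 56.8% where none returned. In the wild type the shares were 78.3%, 44.1% and 40.4%. Clusters of several edges made up 7.56%, 18.8% and 33.3% of the same classes in sor1 and 34.9%, 36.0% and 40.3% in the wild type. Per 100 inner reads the main edge had a median of 8.96, 7.87 and 1.19 trimmed reads in sor1 and 6.78, 1.44 and 1.39 in the wild type. Right ends with no reads within reach thus had the lowest of these medians for sharpness and for trimmed reads per inner read in both libraries. Left ends did not share this order in sor1, where the median shares on the main base were 93.6%, 100% and 96.7% and the trimmed reads per 100 inner reads 8.38, 6.87 and 7.84. The right ends with no reads within reach also had the most inner reads, with medians of 198, 155 and 1299 in sor1 and 731, 948 and 1343 in the wild type. The part of depth in these differences was not tested. The classes overlapped in both trimmed and inner reads.

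**Figure D3:**
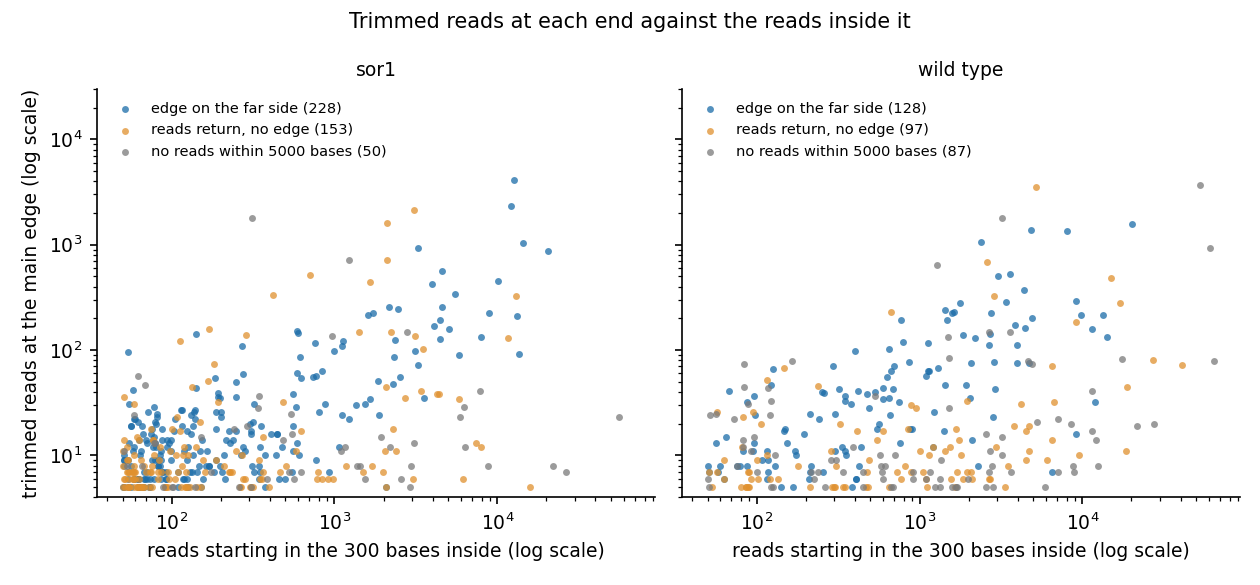
Trimmed reads at the main edge of each end (log scale) against the reads starting in the 300 bases inside it (log scale), sor1 on the left and wild type on the right, coloured by what lay beyond the end. Ends with a far edge reach the most trimmed reads in sor1 (4134), and many ends with no reads within 5000 bases lie at high inner and low trimmed counts.

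Full-length reads ended beyond right ends more often in the wild type. The share that ended 3 to 35 bases beyond the main base, of all that ended 3 to 35 bases to either side of it, had a median of 0%, 0% and 0.31% over the same classes in sor1 and 0.08%, 2.57% and 6.42% in the wild type.

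Among ends with no reads within 5000 bases, the largest in the wild type was at 114395709. It had 3723 trimmed reads at the main base, 1860 in run 1 and 1863 in run 2, in a cluster of 19 edges, and 52699 inner reads; it was not in a paired interval. The next paired one was at 53983167, with 936 trimmed reads at the main base (449 in run 1 and 487 in run 2), 1355 over its 19 edges and 60883 inner reads. At the corresponding sor1 base, 51587525, 283 trimmed reads stopped, with 42337 inner reads. That base is the left boundary of a stretch whose right boundary, at 51587865, was itself a sor1 end with 5 edges, 55497 inner reads and no reads within 5000 bases. In sor1 the end at 19296428 had 41 trimmed reads at the main base of 7 edges, with 7834 inner reads. The same base was an end in the wild type, at 59065626, with 73 trimmed reads, 36 in run 1 and 37 in run 2, and 4913 inner reads.

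When an end of 1 library was carried over, trimmed reads of the other library mostly stopped at the very same base. In paired intervals lay 254 of the 431 sor1 ends and 229 of the 312 wild-type ends. Trimmed wild-type reads stopped at the exact base of 191 of 254 sor1 ends (75.2%, 69.4 to 80.4), and trimmed sor1 reads at that of 204 of 229 wild-type ends (89.1%, 84.3 to 92.8). Among edges of the same libraries that were not ends, the shares were 84.2% of 10115 sor1 edges and 59.5% of 27011 wild-type edges. The share is thus below that of other edges for sor1 ends and above it for wild-type ends. The exact base was also the one with most trimmed reads of the other library among all bases within 25 on either side at 163 of 254 sor1 ends (64.2%) and 171 of 229 wild-type ends (74.7%). For edges that were not ends these shares were 27.2% in sor1 and 10.4% in the wild type. This contrast cannot show a trait of ends, because the choice of edges sets part of it. An end was carried over by its main edge alone, while every other edge counted singly, and of neighbouring edges only 1 can be the highest. The rule also leaves few reads beyond an end. Other edges were not matched to ends in depth or in the number of edges nearby.

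Counted in reads, 10497 of the 15342 wild-type trimmed reads within 25 bases of a carried-over sor1 end stopped on the exact base (68.4%), and 30676 of 38056 sor1 trimmed reads did so around wild-type ends (80.6%). A few ends weighed heavily in the wild-type sums. The sor1 ends at 38324410, 107573309 and 96724141 alone had 3529, 2434 and 1109 of the wild-type reads on the exact base. Within 25 bases they had 3811, 2798 and 1940. No other base within 10 bases had more than 351 wild-type reads or 547 sor1 reads in sum. The shares were similar in paired intervals of the same orientation (72.5% of 138 sor1 ends and 86.5% of 133 wild-type ends) and in reversed ones (78.4% of 116 and 92.7% of 96).

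**Figure D4:**
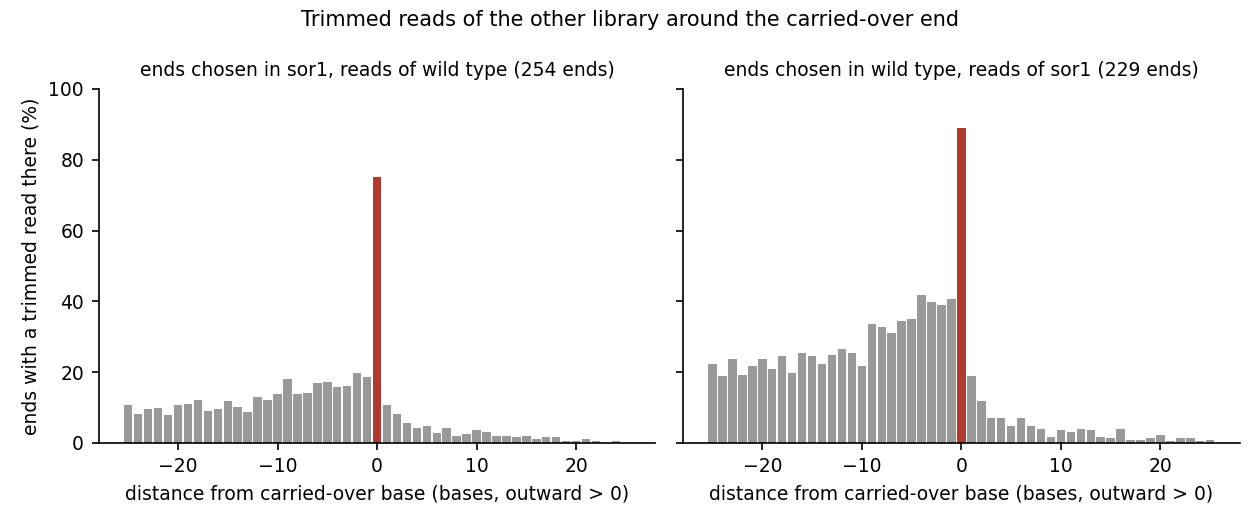
Percentage of carried-over ends with at least 1 trimmed read of the other library whose outer end falls at each distance from the carried-over base, for ends chosen in sor1 on the left and in wild type on the right. The exact base, in red, stands out at 75.2% of 254 sor1 ends and 89.1% of 229 wild-type ends.

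The share grew with the number of trimmed reads by which an end was chosen. At sor1 ends with at least 50 trimmed reads, 49 of 51 had wild-type trimmed reads at the same base, and at those with 5 to 9 reads 68 of 107. At wild-type ends with at least 50 trimmed reads, 59 of 59 had sor1 trimmed reads at the same base, and at those with 5 to 9 reads 62 of 82. It also moved with the depth of the other library. Of sor1 ends whose wild-type stretch had at least 50 inner reads, 134 of 154 had wild-type trimmed reads at the same base (87.0%), and 57 of 100 where it had fewer (57.0%). By what lay beyond, the counts were 110 of 145, 61 of 87 and 20 of 22 for sor1 ends with a far edge, with returning reads and with no reads in reach. For wild-type ends they were 104 of 105, 58 of 71 and 42 of 53.

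Both edges of a gap were met by trimmed reads of the other library at nearly all wild-type gaps and at a smaller share of sor1 gaps. At 89 of 145 carried-over sor1 ends with a gap (61.4%, 52.9 to 69.3) and 102 of 105 such wild-type ends (97.1%, 91.9 to 99.4), trimmed reads of the other library stopped at the exact base of both edges. Neither edge had such reads at 19 of these sor1 ends and at 0 of these wild-type ends. The same share for pairs of edges that were not ends was not computed. The depth of the other library differed as well. Over all classes, ends chosen in 1 library alone had a median of 54.5 inner reads in the other library for sor1 ends and 1573 for wild-type ends. The part of depth in the contrast was not tested. For 21 sor1 ends, which lay at 20 distinct gaps, the wild type had an end on the other side of the gap, as in the 1023-base and 551-base gaps above. At 8 of the 21 the wild type had an end on the same side as well.

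By the full rule, 46 ends were members in both libraries. The main edge fell on the same base at 42 of them and within 2 bases at 43, and the largest shift was 13 bases. The class beyond the end was the same at 41 of 46. Both libraries had a gap with a far edge at 26 of them, and 25 of these gaps had the same length to the base. The exception was the left end at 108088387 in sor1, whose gap was 1504 bases in sor1 and 415 in the wild type. The main base took a median of 90.2% of the nearby trimmed reads in sor1 and 77.0% in the wild type at these 46 ends, and was sharper in sor1 at 31 and in the wild type at 13. These ends had a median of 2045 inner reads in sor1 and 700 in the wild type.

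**Figure D5:**
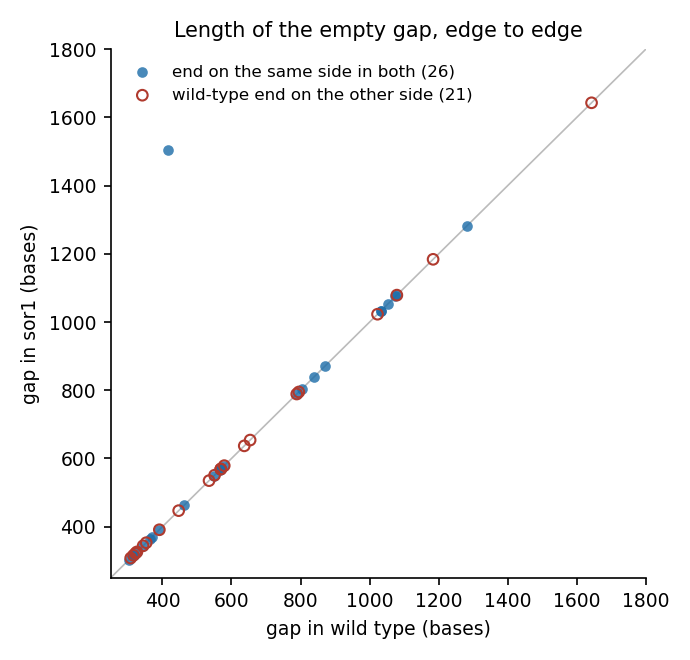
Length in bases of the empty gap from edge to edge in sor1 (vertical) and wild type (horizontal), for 26 ends that were chosen on the same side in both libraries (filled) and 21 sor1 ends with a wild-type end on the other side (open); a gap can enter more than once, and 8 of the 21 are in both sets. All points but 1, the end with 1504 bases in sor1 and 415 in wild type, lie on the line of equal length.

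Most carried-over ends were members in only 1 library although the edge itself was often seen in both. Of the 208 sor1 ends that were not wild-type ends, 152 had fewer than the required trimmed reads at the edge in the wild type, 100 had too few inner reads and 40 had more than 2 reads beyond; an end can fail on more than 1 count. Of the 183 wild-type ends that were not sor1 ends, 55 failed on trimmed reads in sor1, 2 on inner reads and 105 on reads beyond. These counts read left edges by the last base, while the rule reads them by the start. A base can therefore meet all of these limits and still not be a member. The wild-type base opposite the sor1 end at 107573309 had 2434 trimmed reads, 12036 inner reads and 0 beyond. Of the 46 ends in both libraries 8 lay in reversed intervals, as did 116 of the 254 carried-over sor1 ends. The median of wild-type inner reads at those 208 sor1 ends was 54.5, near the threshold of 50.

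The wild-type runs measured the ends alike. Trimmed reads stopped at the main edge in both runs at 311 of 312 wild-type ends, with 14858 reads in run 1 and 15026 in run 2. The chi-square of the runs over the ends was 1.11 per degree of freedom for trimmed reads and 1.07 for inner reads, close to the counting error alone, and no end differed 2-fold in inner reads. Of 72 ends with at least 50 trimmed reads 1 differed 2-fold in them, the left end at 113257462, with 35 in run 1 and 17 in run 2. The runs share 1 sample and give the sequencing error only.

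Inner reads at paired ends were more often higher than lower in sor1, but so were those of other sequence. In this comparison, inner reads of ends on the left in the sor1 frame were counted by their last base in sor1, not by their start. Wild-type reads were counted by the matching base. Scaled to the reads in paired intervals, 231 of 436 ends had at least 2-fold more inner reads in sor1 and 39 at least 2-fold fewer, with a median log2 ratio of 1.22. Among all 9056 windows of 300 bases with at least 50 reads, 40% were at least 2-fold higher and 11.1% lower, with a median of 0.60. Relative to that median, 176 ends were higher (40.4%) and 80 lower (18.3%), against 26.9% and 23.1% of all windows. The library in which an end was chosen fixes part of its direction, since the rule asks for reads inside it. Of 207 ends chosen in sor1 alone 144 were higher and 5 lower, of 183 chosen in the wild type alone 64 were higher and 31 lower, and of 46 chosen in both 23 were higher and 3 lower. With each start and length counted once, 77 ends were higher and 38 lower and the median was -0.00070. These were 19.0% and 9.36% of 406 ends, against 22.3% and 7.15% of all windows, whose median was 0.12, so the share of higher ends was above that of all windows with repeated reads and below it without them.

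Ranked by the bound of the interval nearest to 1, the ends furthest apart were at 16793643 and 16792948 in sor1. The first had 13210 inner reads in sor1 and 14 in the wild type, 3 in run 1 and 11 in run 2, which is 850-fold higher (506 to 1555). It faced a gap of 923 bases, and 211 trimmed reads stopped at its main base in sor1 and 2 in the wild type. The second, also a right end and close to the first, had 142 inner reads in sor1 and 0 in both wild-type runs. The exact interval of the ratio reaches down to 34.2-fold higher in sor1. With 3 reads put in for the wild-type library the ratio would be 42.6-fold. The third, at 6568881 in the sor1 frame, had 1875 inner reads in sor1 and 56 in the wild type, 22 in run 1 and 34 in run 2 (30.2-fold, 23.1 to 40.1). It was chosen in the wild type, at a gap of 1476 bases, and had 202 trimmed reads in sor1 and 13 in the wild type. The intervals do not cover errors of pairing, and stretches between matched windows were filled. With only windows matched by their own pattern, 383 ends remained, against 436. Their median log2 ratio was 0.98, against 0.59 for all windows. Whether the ends ranked here were among them is not given.

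The ends furthest in the other direction were all chosen in the wild type and had no reads within 5000 bases of them there. Their positions are given in the sor1 frame. At 72371894, a left end in the sor1 frame, there were 889 inner reads in sor1 and 4638 in the wild type. The latter were 2345 in run 1 and 2293 in run 2, and the level was 5.79-fold lower in sor1 (5.39 to 6.23). Its main base had 3 trimmed reads in sor1 and 78 in the wild type. At 26488145 there were 1176 inner reads in sor1 and 5895 in the wild type (5.57-fold lower, 5.23 to 5.93), and at 40534836 there were 132 and 670 (5.64-fold lower, 4.67 to 6.85). The main edges of these last ends had 2 and 0 trimmed reads in sor1 and 5 each in the wild type.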

How the data were processed

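The deposited files hold whole-number counts of uniquely aligned reads per start position and alignment length, without normalization by the authors. Per the deposited readme, the aligner was SOAP. Whole reads were tried first, allowing 2 mismatches, and the remainder were shortened from either end, down to a minimum of 21 bases, until an exact match was found. Its version is not given in the sources used here. The readme names the v.3.1 assembly for alignment and v4 for positions, and does not say whether files differ. The wild-type runs were summed. Edges, ends and classes were computed with numpy 2.4.6 and pandas 2.3.3, and intervals with scipy 1.17.1 (Clopper-Pearson). Windows of 2000 bases were paired by the log of full-length read starts minus a moving mean over 61 bases, at a similarity of at least 0.3, or 0.2 near an accepted window; stretches between windows of 1 offset up to 100000 bases apart were filled. Log2 ratios used counts scaled to paired totals (6715606 in sor1, 6047698 in the wild type) plus 0.5. Finding and pairing were tested on simulated data. The members and lists were chosen with earlier results of these data known, and the settings of what lies beyond an end after seeing the data. Named ends have the most trimmed reads per library and side, the most edges, the values nearest a threshold, or the ratio bounds furthest from 1 if both wild-type runs give that direction; the left and right partners of a named end and the end at 51587865 were added after their values were seen.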

Additional observations from a re-analysis of the deposited data

Results flagged for a closer look

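Ends outside the paired intervals entered no comparison between the libraries, and their trimmed reads were set aside from it. They held 9829 trimmed reads at 177 sor1 ends and 12604 trimmed reads at 83 wild-type ends, where a read with an end on both sides counts at each. The largest of them were the left end at 87583711 in sor1 and the right end at 114395709 in the wild type.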

How the results depend on the processing

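The number of ends depended most on the rule. Against 431 in sor1 and 312 in the wild type there were 188 and 180 with no read allowed beyond, 862 and 486 with windows of 200 bases, 166 and 207 with 500 bases, and 220 and 173 with at least 10 trimmed reads of 5 kinds. In sor1 there were also 687 with 5 reads allowed beyond, 660 with 20 inner reads, 197 with 200 and 233 with each start and length counted once; the wild type had 529 with mirrored left edges.

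The share of ends with several edges was 10.2% in sor1 and 29.8% in the wild type. It was 7.19% in sor1 with 200-base windows, 6.97% with 20 inner reads and 6.36% with 10 trimmed reads, and 20.3% and 38.4% with 200 inner reads.

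Carried-over ends with a trimmed read of the other library within 2 bases made up 76.4% of sor1 ends and 93.9% of wild-type ends. For sor1 ends this was 70.6% with 20 inner reads, 87.0% with 200, 87.0% with each read counted once, 67.7% with wild-type run 1 alone and 62.2% with run 2 alone. With 10 trimmed reads it was 85.6% and 97.8%; for wild-type ends it was 97.0% with run 2 alone, 89.1% at the exact base and 97.8% within 10 bases.

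Ends with no reads in reach (11.6% in sor1, 27.9% in the wild type) were 8.58% and 21.5% when 5 starts counted as returning, 20.9% in sor1 with 20 starts, 18.1% and 37.8% within 2000 bases and 6.26% and 18.6% within 10000 bases. The wild-type share was above that of sor1 in each of these pairs. Scaled by the median of ratios, 80 ends were lower in sor1; with each start and length counted once 77 were higher and the median log2 ratio was -0.00070 against 1.22. The cause of these shifts was not tested. The other 100 alternative values, over all results, stayed within their limits, but some of them could not move. These include sor1 counts with either wild-type run alone and wild-type values with only sor1 thinned. Shares had to stay within the interval of the main value, and the limits for counts and ratios were wide. Values of 448 wild-type ends against 312, and a median log2 ratio of 0.61 against 1.22, were within them. No paired analysis was possible because there is 1 sample per genotype.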
